A study of Mus musculus with 6 samples.

Results

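The circadian clock genes described here were 10 rows of the count files chosen by name, of 53546 genes in all. They were Arntl, Clock and Npas2 of the positive limb, Per1, Per2, Per3, Cry1, Cry2 and Nr1d1 of the negative limb, and the output gene Dbp. RNA came from non-parenchymal cells of the liver, a fraction of endothelial, Kupffer and stellate cells and leukocytes. There were 3 libraries from male SRA-/- mice, which lack scavenger receptor A, the product of Msr1, and 3 from male wild type mice. Every mouse had been given acetaminophen, an analgesic that injures hepatocytes at high dose, at 400 mg/kg into the peritoneum, and cells were taken 6 h later. The labels give no strain, age or hour of day, and mice without acetaminophen were not analysed here. The list of genes was drawn up with the difference between SRA-/- and wild type libraries already known. The values that chose it were therefore those of this contrast, and the fold changes below describe the 10 genes and test nothing about them as a group.

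The clock is a feedback loop of transcription. ARNTL (also called BMAL1) pairs with CLOCK, or with its paralog NPAS2, and the pair switches on genes that carry E-boxes, among them the Per and Cry genes, Nr1d1 and Dbp. PER and CRY proteins then inhibit that pair, and the nuclear receptor REV-ERB alpha, made from Nr1d1, represses Arntl and Npas2. In mouse liver Arntl and the Per genes peak at roughly opposite times of day, though the genes of a limb do not all peak together. Dbp, a transcription factor of the PAR bZIP family, drives rhythmic genes through D-boxes.

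Matches to the binding motifs of the loop are shown first. In the loop ARNTL acts at E-boxes, DBP at D-boxes and REV-ERB alpha at ROR elements. Promoter windows of RefSeq (build GRCm38.p6), from 250 bases before to 50 after a transcription start, were at hand for 9 of the 10 genes, in 13 windows, Per2 not among them. They were searched on both strands for an E-box (CACGTG, which reads the same on both strands), its variant E′-box (CACGTT, or AACGTG on the other strand), a D-box (TTATGTAA) and an element for ROR and REV-ERB receptors (ANTAGGTCA). No matched stretch overlapped another. Capitals mark the matches. Per1 is shown from the plus strand of chr11:69098699-69098948, Per3 from the minus strand of chr4:151044666-151044915 and Cry1 from the minus strand of chr10:85185055-85185304, each being the 250 bases before the start. Arntl is shown as 30 bases of the plus strand around its match, chr7:113207529-113207558.
Per1: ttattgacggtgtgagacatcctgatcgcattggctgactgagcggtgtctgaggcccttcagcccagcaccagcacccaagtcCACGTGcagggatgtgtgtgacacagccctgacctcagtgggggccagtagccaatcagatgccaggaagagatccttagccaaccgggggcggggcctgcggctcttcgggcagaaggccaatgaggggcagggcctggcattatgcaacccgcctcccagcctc
Per3: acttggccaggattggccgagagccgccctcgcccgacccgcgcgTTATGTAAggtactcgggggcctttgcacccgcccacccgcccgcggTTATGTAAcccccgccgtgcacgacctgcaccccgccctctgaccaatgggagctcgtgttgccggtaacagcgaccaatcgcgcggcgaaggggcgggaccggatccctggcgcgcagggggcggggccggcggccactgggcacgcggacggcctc
Cry1: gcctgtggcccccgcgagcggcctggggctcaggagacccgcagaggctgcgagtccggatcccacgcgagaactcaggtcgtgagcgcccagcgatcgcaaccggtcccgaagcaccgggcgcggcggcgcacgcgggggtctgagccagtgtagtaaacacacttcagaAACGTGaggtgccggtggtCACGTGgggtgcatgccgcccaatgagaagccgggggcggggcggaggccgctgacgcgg
Arntl: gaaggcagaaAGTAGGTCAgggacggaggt

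In Per1 the E-box began 166 bases before the start, and in Cry1 an E′-box and an E-box began 79 and 60 bases before it. Per3 held a pair of D-boxes, which began 205 and 158 bases before the start. The ROR element of Arntl lay past the start, from base 29. Cry2 and Nr1d1 each held an E′-box, 166 and 28 bases before their starts, and 7 of the 13 windows, those of Clock, Npas2 and Dbp among them, held no match. Of all 32851 windows in the same table, 7.15% held the E-box, 4.68% the E′-box, 0.938% the D-box and 0.661% the ROR element. A match is a stretch of letters and not a measured binding site.

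Library totals ran from 23757203 to 44003902 counts. Each mate of a read pair was counted, so a count stands for less than a fragment. Markers of endothelial cells, Kupffer cells and stellate cells were present in every library, and hepatocyte RNA was as well. The hepatocyte list of 15 genes took 5.96% to 10.6% of counts in SRA-/- libraries and 3.57% to 8.71% in wild type libraries, and genes of the mitochondrial genome took 6.64% to 21.1% and 9.95% to 19.8%. Transcripts of 10 genes of pancreatic acinar cells summed to 2.63, 293 and 2.41 CPM (counts scaled to library size with TMM factors) in SRA-/- replicates 1, 2 and 3, against 479, 412 and 798 CPM in wild type replicates 1, 2 and 3. Msr1, the targeted gene, had 1848, 1005 and 925 counts in SRA-/- libraries and 1123, 1936 and 3838 in wild type libraries, with wild type replicate 1 inside the SRA-/- range in CPM. The labels do not name the disrupted part of the gene, so its counts do not check the genotype labels.

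The comparison of SRA-/- with wild type cells showed the limbs on opposite sides. All 3 positive limb genes had log2 fold changes below 0, all 6 negative limb genes and Dbp had ones above 0, and the medians were -0.48 and 0.39, against -0.01 over all 20541 genes tested. All 10 clock genes passed the filter on low counts. None passed edgeR's quasi-likelihood test at an adjusted p of 0.05, which 10 of all tested genes did, or 0.0487% (0.0341% higher and 0.0146% lower in SRA-/- cells). At an unadjusted p under 0.05 there were 2 lower genes, Npas2 and Arntl, and 2 higher genes, Per2 and Per3, where 3.22% of all tested genes had such a p, 0.896% lower and 2.32% higher. The groups did not overlap in 2 lower genes, Npas2 and Arntl, and 1 higher gene, Per2, where 3.33% of all tested genes were apart and lower and 3.97% apart and higher. Nothing is read from these shares, since the contrast chose the genes. DESeq2 and limma-voom with quality weights each called 1 of the 10, Per2, as higher. DESeq2 called 0.375% of the genes it gave an adjusted p (0.314% higher, 0.0606% lower), and limma-voom called 0.365% (0.312% higher, 0.0536% lower). In bulk RNA, fewer cells of a type and less RNA per cell cannot be told apart.

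**Figure D1:**
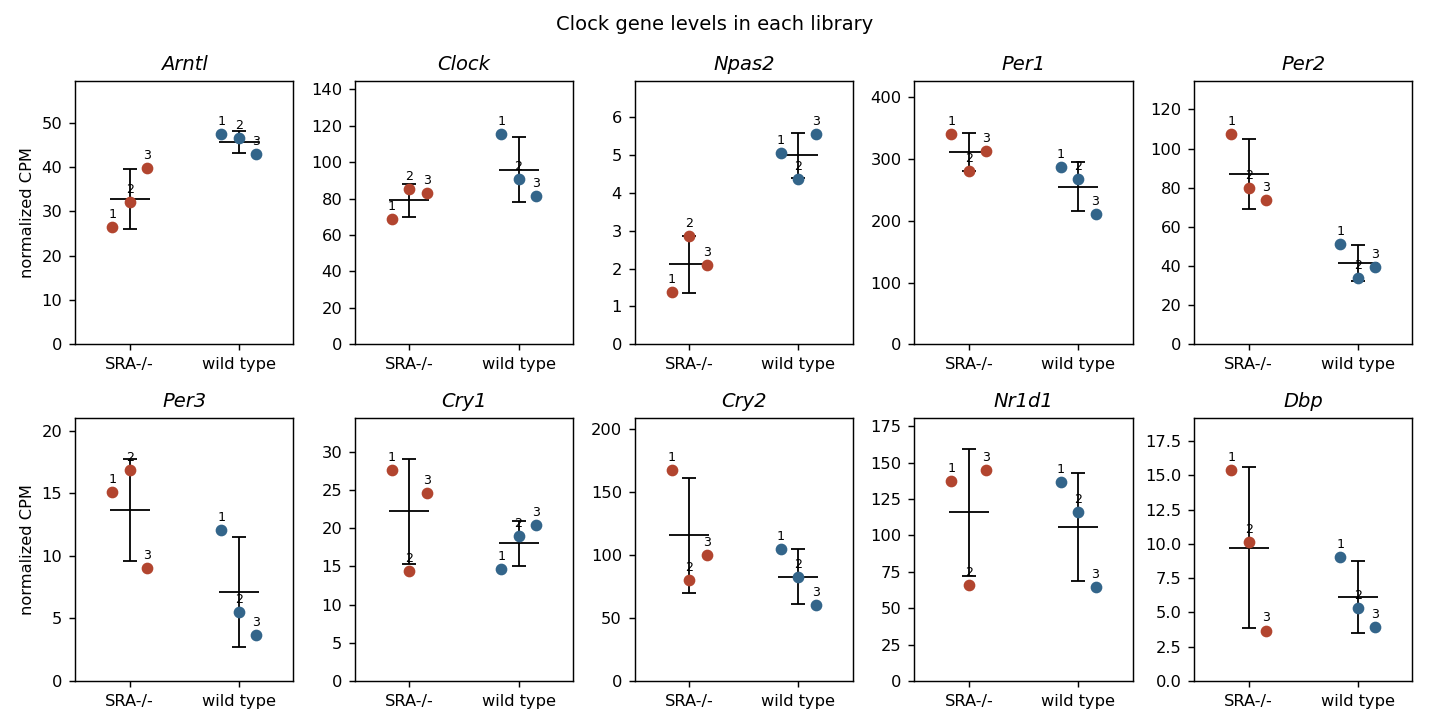
Normalized CPM of the 10 clock genes (y axis, linear, a scale for each gene) in SRA-/- libraries (left) and wild type libraries (right); points are libraries with their replicate number, and bars are the mean and SD of 3. The groups do not overlap in Arntl, Npas2 and Per2 and overlap in the other 7.

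Npas2, the paralog that can replace CLOCK beside ARNTL, differed most among the positive limb genes. It had 63, 86 and 46 counts in SRA-/- replicates 1, 2 and 3, or 1.37, 2.87 and 2.09 CPM, against 147, 115 and 188 counts, or 5.05, 4.37 and 5.57 CPM, in wild type replicates 1, 2 and 3. Every SRA-/- library lay below every wild type library. Its log2 fold change was -1.25 ± 0.31 (SE; edgeR p 0.00291 unadjusted and 0.761 adjusted), and the lowest adjusted p over the alternatives was 0.0559, from DESeq2. Arntl, the partner that both CLOCK and NPAS2 need, had 26.5, 32.1 and 39.9 CPM in SRA-/- libraries and 47.6, 46.5 and 43.0 CPM in wild type libraries. Its groups did not overlap either, though SRA-/- replicate 3 came within a few CPM of wild type replicate 3. The log2 fold change of Arntl was -0.48 ± 0.19 (SE; edgeR adjusted p 0.9999). Wild type libraries were close together in Arntl, with a coefficient of variation of 5.26%, against 20.4% in SRA-/- libraries. Clock had 68.8, 85.2 and 83.0 CPM in SRA-/- libraries and 115.6, 90.6 and 81.2 CPM in wild type libraries, so the groups overlapped. Its log2 fold change of -0.28 ± 0.19 (SE, edgeR) became -0.11 without wild type replicate 1, the highest library.

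Among the Per genes, which encode the period proteins of the repressor complex, Per2 stood apart. It had 108, 80.0 and 73.7 CPM in SRA-/- replicates 1, 2 and 3, against 51.4, 33.8 and 39.3 CPM in wild type replicates 1, 2 and 3. The lowest SRA-/- library was above the highest wild type library. Means were 87.1 ± 18.1 CPM in SRA-/- and 41.5 ± 9.01 CPM in wild type cells (SD, n = 3 each), and the log2 fold change was 1.07 ± 0.22 (SE; edgeR adjusted p 0.559). Per2 was past the threshold with DESeq2 (adjusted p 0.0115), limma-voom with quality weights (0.0107) and edgeR without a filter on low counts (0.0345), in a range up to 1 over all alternatives. Per3 had 15.1, 16.8 and 9.03 CPM in SRA-/- libraries and 12.1, 5.51 and 3.70 CPM in wild type libraries. Wild type replicate 1 was above SRA-/- replicate 3, so these groups overlapped. The log2 fold change of Per3 was 0.95 ± 0.41 (SE), and it was 1.58 without wild type replicate 1. Per1, an early response gene as well as a clock gene, had 341, 281 and 312 CPM in SRA-/- libraries and 287, 268 and 211 CPM in wild type libraries. SRA-/- replicate 2 lay below wild type replicate 1, so the groups overlapped, and its log2 fold change was 0.29 ± 0.21 (SE), or 0.17 without wild type replicate 3.

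The cryptochromes, which bind and inhibit the pair of CLOCK and ARNTL, had smaller differences than Per2 and Per3, and overlapping groups. Cry1 had 27.6, 14.4 and 24.6 CPM in SRA-/- libraries and 14.7, 19.0 and 20.4 CPM in wild type libraries, with SRA-/- replicate 2 the lowest of all 6. Cry2 had 167, 79.9 and 99.6 CPM in SRA-/- libraries and 105, 82.8 and 60.6 CPM in wild type libraries. The high mean of Cry2 in SRA-/- cells rested on replicate 1: the log2 fold change was 0.48 ± 0.30 (SE) with all libraries and 0.12 without that replicate. For Cry1 it was 0.30 ± 0.26 (SE), and it was 0.11 without the same library.

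Nr1d1, the repressor of Arntl in the second loop, took either sign, depending on the libraries used. It had 137, 65.7 and 145 CPM in SRA-/- libraries and 137, 116 and 64.3 CPM in wild type libraries. Each group held a low library, SRA-/- replicate 2 and wild type replicate 3. For all 6 libraries its log2 fold change was 0.13 ± 0.34 (SE), and it was 0.41 without SRA-/- replicate 2. It lay below 0 when SRA-/- replicate 1 (-0.006), SRA-/- replicate 3 (-0.059) or wild type replicate 3 (-0.125) was left out. Dbp, the output gene, ran from the highest to the lowest value of the series within the SRA-/- group, with 15.4, 10.1 and 3.68 CPM in SRA-/- replicates 1, 2 and 3, against 9.07, 5.35 and 3.94 CPM in wild type replicates 1, 2 and 3. Its log2 fold change of 0.68 ± 0.47 (SE) was 0.18 when SRA-/- replicate 1 was left out, and was 1.09 when wild type replicate 1 was.

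**Figure D2:**
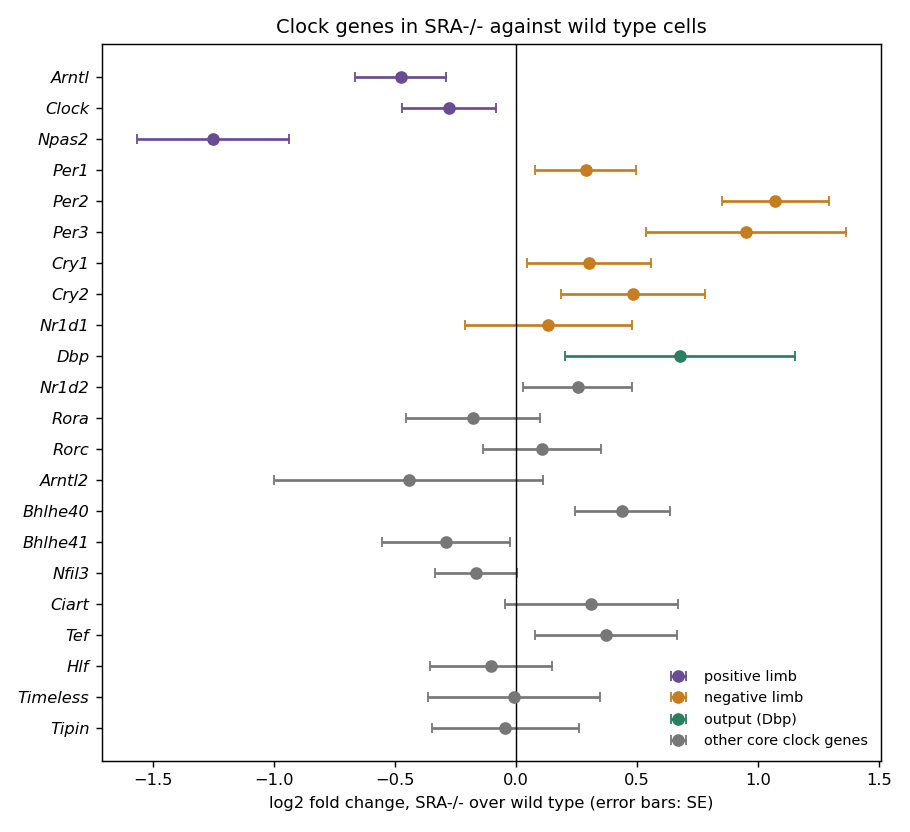
Log2 fold changes of SRA-/- over wild type (x axis) with SE for the 10 clock genes and for 12 other core clock genes (y axis), from edgeR on 3 libraries per group. The 3 positive limb genes lie below 0, the 6 negative limb genes and Dbp above 0, and the other core genes lie between -0.45 and 0.44.

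Set against each other, the limbs separated the libraries by genotype. For each library, the log2 CPM of each gene was taken relative to its mean over the 6 libraries and averaged over the limb. The positive limb lay at -0.68, -0.14 and -0.20 in SRA-/- replicates 1, 2 and 3, against 0.46, 0.27 and 0.29 in wild type replicates 1, 2 and 3. The negative limb lay at 0.60, -0.01 and 0.22 in SRA-/- libraries and at 0.06, -0.28 and -0.59 in wild type libraries. Positive minus negative was below 0 in each SRA-/- library, at -1.28, -0.13 and -0.42, and above 0 in each wild type library, at 0.40, 0.54 and 0.88. The groups did not overlap in this difference, while the negative limb alone overlapped, SRA-/- replicate 2 being below wild type replicate 1. Means were -0.61 ± 0.59 in SRA-/- and 0.61 ± 0.25 in wild type libraries (SD, n = 3 each), which differ by -1.22 log2 units. Without both Npas2 and Per2, the members with the lowest p, a choice made after seeing the data, the difference was -0.82 and the groups still did not overlap. No p is given, because the genes and their limbs were chosen with this contrast known.

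**Figure D3:**
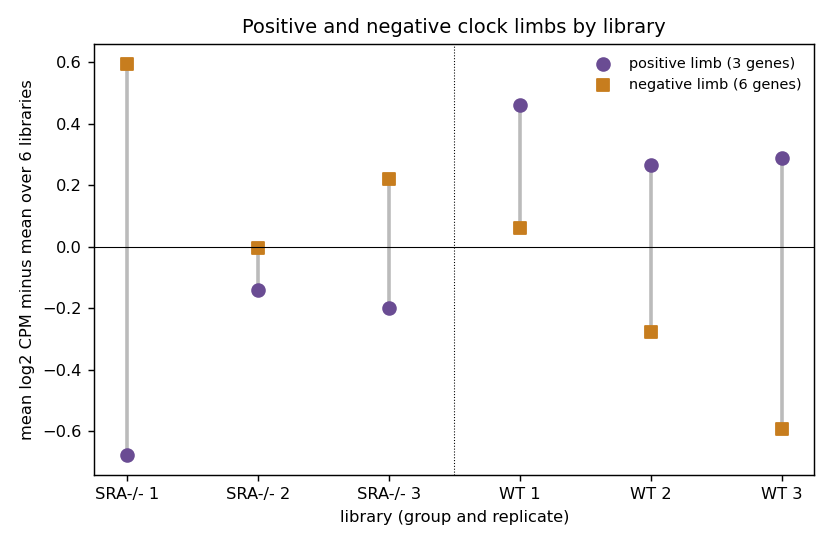
Mean deviation of log2 CPM from the mean over 6 libraries (y axis) for the 3 positive limb genes (circles) and the 6 negative limb genes (squares) in each library (x axis); grey bars join the limbs of a library. The circle lies below the square in all 3 SRA-/- libraries and above it in all 3 wild type libraries.

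Ratios within a library do not depend on its scaling. The ratio of Per2 to Npas2 CPM was 78.5, 27.8 and 35.3 in SRA-/- replicates 1, 2 and 3, against 10.2, 7.74 and 7.06 in wild type replicates 1, 2 and 3. Per2 to Arntl was 4.06, 2.49 and 1.85 in SRA-/- libraries and 1.08, 0.727 and 0.914 in wild type libraries. Per1 to Arntl was 12.9, 8.74 and 7.84 in SRA-/- libraries and 6.03, 5.76 and 4.91 in wild type libraries. In these 3 ratios the lowest SRA-/- value was above the highest wild type value. So it was in 12 of all 18 ratios of a negative to a positive limb gene, 3 of them with Arntl. The ratio of Nr1d1 to Arntl, the repressor to its target, was 5.18, 2.05 and 3.63 in SRA-/- libraries and 2.87, 2.5 and 1.5 in wild type libraries, and overlapped. The ratios of Per3 and Cry1 to Arntl overlapped too. All these ratios are built from the contrast that chose the genes and describe it in another form.

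Shares within the paralog families give the contrast that chose the genes in a further form. Npas2 made up 5.40%, 8.81% and 6.72% of the summed Npas2 and Clock level per kilobase of exon in SRA-/- libraries, against 11.1%, 12.1% and 16.4% in wild type libraries. Per2 made up 22.8%, 20.9% and 18.2% of the Per genes in SRA-/- libraries and 14.4%, 10.7% and 15.1% in wild type libraries, on the same scale. Per1 took most of the rest, with 77.3% ± 2.71 in SRA-/- and 85.3% ± 2.57 in wild type libraries (SD, n = 3 each). These shares did not overlap between the groups, and those of Per1 and Per2 nearly mirror each other. The share of Per3 overlapped, at 1.95%, 2.68% and 1.36% in SRA-/- libraries and 2.06%, 1.06% and 0.865% in wild type libraries. The share of Cry1 in the Cry genes did overlap, at 23.8%, 25.5% and 31.8% in SRA-/- libraries and 21%, 30.3% and 38.9% in wild type libraries.

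Levels per exon length set Per1 and Nr1d1 highest and Per3 and Npas2 lowest. Over the 6 libraries Per1 averaged 50.3 ± 7.82 CPM per kb (SD, n = 6), a level above that of 97.1% of tested genes. Nr1d1 followed with 36.0 ± 11.9, Cry2 with 15.7 ± 5.82 and Per2 with 10.98 ± 4.79 CPM per kb. Clock, Cry1 and Arntl were close together, at 6.37 ± 1.13, 6.02 ± 1.57 and 5.22 ± 1.11 CPM per kb. Dbp had 2.65 ± 1.51, Per3 1.08 ± 0.54 and Npas2 0.74 ± 0.35 CPM per kb, the last above 27.4% of tested genes. Each gene's range over the libraries overlapped that of the next gene in the order. Within libraries, Per1 was above Nr1d1, Nr1d1 above Cry2 and Dbp above Per3 in 6 of 6, while Clock was above Cry1 in 3 of 6, Cry1 above Arntl in 4 and Per3 above Npas2 in 4. Cry2 was above Per2, Per2 above Clock and Arntl above Dbp in 5 of 6. By group means the first 4 places were the same in SRA-/- and wild type cells, and Npas2 was lowest in SRA-/- cells while Per3 was lowest in wild type cells.

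**Figure D4:**
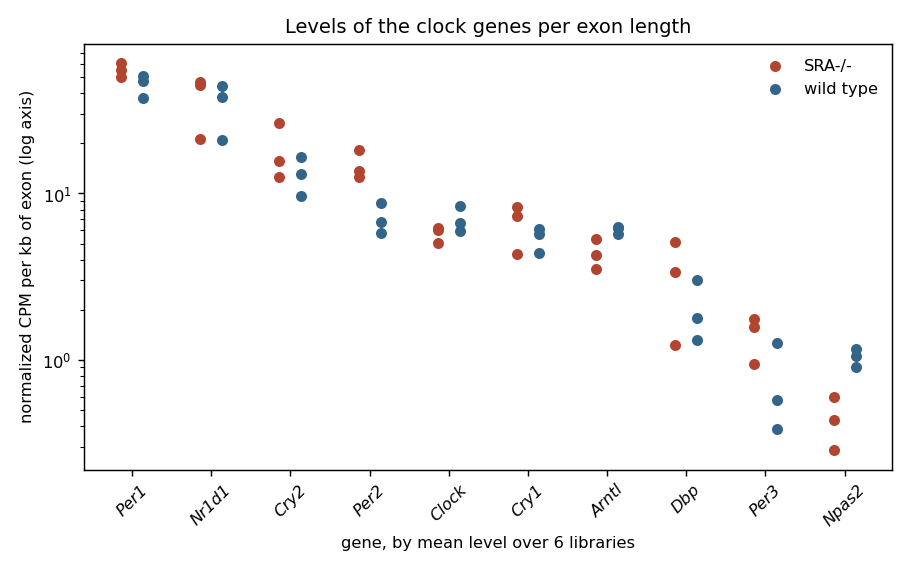
Normalized CPM per kilobase of exon (y axis, log scale) for the 10 clock genes in order of mean level (x axis); each point is a library, SRA-/- left and wild type right of each gene. Levels run from Per1 at 37.5 to 60.6 CPM per kb to Npas2 at 0.286 to 1.16 CPM per kb.

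Within a group, clock genes ranged from steadier to more variable than other genes. Among 11507 tested genes in the same range of mean CPM the median coefficient of variation was 14.8% in SRA-/- and 17.9% in wild type libraries, and 8 of the 10 clock genes were above it in SRA-/- libraries and 6 of 10 in wild type libraries. In the SRA-/- group Dbp was highest at 60.2%, and Per1 (9.69%) and Clock (11.3%) were below the median. In the wild type group Per3 was highest at 62.1%, and Arntl (5.26%), Npas2 (12.1%), Per1 (15.5%) and Cry1 (16.4%) were below it. Over all 6 libraries, which takes in the difference between the groups, the highest library exceeded the lowest by 1.62-fold in Per1 to 4.55-fold in Per3. The median of this ratio over the same 11507 genes was 1.62. SRA-/- replicate 1 was the lowest library in Arntl, Clock and Npas2 and the highest in Per1, Per2, Cry1, Cry2 and Dbp.

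Cell type markers moved between the same libraries. The median hepatocyte gene lay at -0.03, -0.125 and 0.57 log2 units from its mean in SRA-/- replicates 1, 2 and 3, and at 0.365, -0.002 and -0.975 in wild type replicates 1, 2 and 3. In the wild type group Arntl, Clock, Per1, Per3, Cry2, Nr1d1 and Dbp had the same order as the hepatocyte list, replicate 1 highest and replicate 3 lowest, and Npas2, Per2 and Cry1 did not. In SRA-/- replicate 3, the library of its group highest in hepatocyte genes, Per2, Per3 and Dbp were the lowest of the group and Arntl and Nr1d1 the highest. With the hepatocyte list as a covariate the log2 fold changes of Npas2, Arntl and Per2 were -1.22, -0.55 and 1.05, and that of Nr1d1 was -0.06. Of the marker lists, edgeR called 0 genes. DESeq2 called 4 neutrophil genes and 1 B cell gene as higher in SRA-/- cells. Limma-voom called 1 of each as higher and the endothelial gene Lyve1 as lower. Over all genes DESeq2 called 0.314% as higher, and limma-voom called 0.312% as higher and 0.0536% as lower. The endothelial list of 10 genes summed to 3229, 3163 and 2673 CPM in SRA-/- libraries and to 2648, 3624 and 4661 CPM in wild type libraries, which overlap, and all 10 log2 fold changes were below 0, with a median of -0.22. The T and NK cell list summed to 11.97, 19.5 and 17.1 CPM in SRA-/- libraries. In wild type libraries it summed to 8.93, 12.3 and 12.9 CPM, and 7 of its 8 genes were tested, all 7 above 0. The neutrophil list summed to 142, 44.6 and 181 CPM in SRA-/- libraries and to 16.7, 32.8 and 43.9 CPM in wild type libraries, and 8 of its 10 genes were tested, all with log2 fold changes above 0. Of the defining neutrophil genes Ly6g and Camp had at most 15 counts in any library. The B cell list of 5 genes summed to 17.5, 24.7 and 16.8 CPM in SRA-/- libraries and to 10.4, 8.20 and 10.2 CPM in wild type libraries, with all 5 log2 fold changes above 0. The groups were apart, with SRA-/- cells higher, in 3 neutrophil, 4 B cell and 2 T and NK cell genes. They were so in 1 of 7 monocyte genes too, a list with 3 log2 fold changes above and 4 below 0. Over all tested genes 3.97% were apart and higher. In the endothelial list 1 gene, Lyve1, was apart and lower. All 9 tested acinar genes had their highest SRA-/- value below the lowest wild type value, as Npas2 and Arntl had. Of all tested genes 3.33% were apart and lower. Without SRA-/- replicate 2, the SRA-/- library that held acinar transcripts, Npas2 had a log2 fold change of -1.55, Arntl -0.47 and Per2 1.13. What part the endothelial, neutrophil, monocyte, B cell, T and NK cell and acinar transcripts had in the clock values was not tested.

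**Figure D5:**
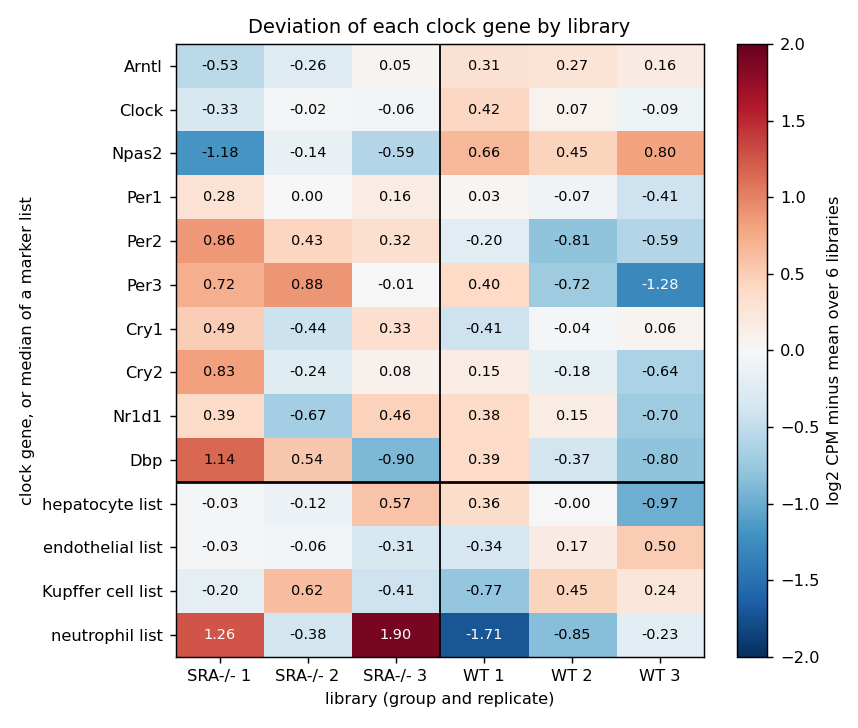
Deviation of log2 CPM from the mean over 6 libraries (colour and printed value) for the 10 clock genes and for the median gene of 4 marker lists (rows) in each library (columns, SRA-/- left). SRA-/- replicate 1 is lowest in all 3 positive limb genes, and wild type replicate 3 is lowest in Per1, Per3, Cry2 and Nr1d1 and in the hepatocyte list.

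Among other genes of the clock and its outputs, 4 lists were examined, and in each of them edgeR, DESeq2 and limma-voom called 0 genes. Of 13 further core clock and loop genes 12 were tested, 5 above and 7 below 0, with a median log2 fold change of -0.03 and 0 past the test. None had an unadjusted p under 0.05. Its members highest per exon length were Nfil3, which encodes the repressor of D-box genes, and Bhlhe40, a repressor at E-boxes. Nfil3 had 98.0 ± 5.53 CPM in SRA-/- and 109.8 ± 11.6 CPM in wild type cells (SD, n = 3 each). Bhlhe40 had 280, 242 and 306 CPM in SRA-/- libraries and 189, 193 and 228 CPM in wild type libraries, or 0.44 ± 0.20 on the log2 scale (SE; edgeR adjusted p 0.9999). It was the only gene of these 12 whose groups did not overlap, where 7.30% of all tested genes did not. Of 20 kinases, ubiquitin ligases and cofactors of the clock, 6 were above and 14 below 0, with a median of -0.05. Prkaa1, which encodes a subunit of AMP-activated kinase and was picked out after its values were seen, did not overlap. It had 12.5, 14.7 and 10.8 CPM in SRA-/- and 14.8, 15.0 and 16.02 CPM in wild type libraries. Of these 20 genes only Prkaa1 was apart, where 3.33% of all tested genes were apart and lower. Among these 20 genes Usp2, a deubiquitinase and a rhythmic gene itself, had an edgeR unadjusted p under 0.05. It had 25.2, 17.6 and 23.7 CPM in SRA-/- and 18.4, 14.9 and 13.1 CPM in wild type libraries. The groups overlapped in Usp2, and its log2 fold change was 0.52 ± 0.21 (SE, edgeR adjusted p 0.9999). The most abundant per length, the corepressor gene Ncor1 and the kinase gene Csnk1d, had 253 ± 6.07 and 103 ± 13.5 CPM in SRA-/- cells and 262 ± 10.9 and 107 ± 13.1 CPM in wild type cells (SD, n = 3 each).

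Rhythmic output genes of mouse liver, 20 in number, were above 0 in 15 cases and below in 5, with a median of 0.17 and 0 past the test. Noct, a rhythmic gene for nocturnin, had 78.8, 82.7 and 66.7 CPM in SRA-/- libraries and 52.6, 45.7 and 43.4 CPM in wild type libraries. All SRA-/- libraries were above all wild type libraries, and the log2 fold change was 0.69 ± 0.17 (SE; edgeR p 0.00263 unadjusted and 0.761 adjusted). The lowest adjusted p of Noct over the alternatives was 0.0513, from limma-voom. Mthfd1l, a gene of mitochondrial folate metabolism picked out after its values were seen, did not overlap either. It had 15.6, 21.1 and 15.8 CPM in SRA-/- and 12.4, 11.96 and 14.8 CPM in wild type libraries. Noct and Mthfd1l were the only 2 of these 20 genes to be apart, where 3.97% of all tested genes were apart and higher. Pdk4, which encodes a kinase that inhibits pyruvate dehydrogenase, had 123, 51.0 and 45.98 CPM in SRA-/- libraries and 29.1, 40.3 and 46.5 CPM in wild type libraries. Its log2 fold change of 0.92 ± 0.36 (SE, edgeR adjusted p 0.9999) was 0.33 without SRA-/- replicate 1, the high library. Por and Insig2, the most abundant of the list per length, had 1106 ± 176 and 302 ± 79.5 CPM in SRA-/- and 849 ± 112 and 296 ± 117 CPM in wild type cells (SD, n = 3 each). Glucocorticoids, which act on Per1 and Per2, give another set of targets. Of 15 response genes 8 were above and 7 below 0, with a median of 0.00 and 0 past the test. Per1 is itself 1 of these 15, and Tsc22d3 is on the rhythmic output list too. Fkbp5, the gene of a co-chaperone of the glucocorticoid receptor, was the member whose groups did not overlap and was picked out for that. It had 219, 221 and 207 CPM in SRA-/- and 287, 267 and 268 CPM in wild type libraries. That is 1 of 15 genes, where 3.33% of all tested genes were apart and lower. Tat and Pck1, the most abundant of these response genes, are members of the hepatocyte list too. They had 1769 ± 280 and 2128 ± 50.3 CPM in SRA-/- and 1476 ± 422 and 2127 ± 330 CPM in wild type cells (SD, n = 3 each).

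Several clock genes share exon bases with genes on the other strand, and the counting did not use strand. Under its settings reads that touch both genes were counted for neither. Dbp shares 539 bases, 18.0% of its exons, with Sphk2, a gene for a sphingosine kinase at 44.03 ± 4.73 CPM in SRA-/- and 43.9 ± 11.1 CPM in wild type cells (SD, n = 3 each). Nr1d1 shares 263 bases (8.55%) with Thra, which encodes a thyroid hormone receptor and had 33.5 ± 7.10 CPM in SRA-/- and 32.9 ± 1.48 CPM in wild type cells. Cry2 shares 295 bases (4.67%) with D930015M05Rik, which had 11.5, 5.24 and 6.58 CPM in SRA-/- and 6.19, 4.14 and 3.88 CPM in wild type libraries and was, like Cry2, highest in SRA-/- replicate 1. Arntl shares 33 bases with the predicted gene Gm45355. The exons of Clock, Npas2, Per1, Per2, Per3 and Cry1 shared none with another gene. In build mm39 of the count files, Npas2 runs from 39232812 to 39402317 on the plus strand and Per2 from 91343704 to 91387046 on the minus strand of chromosome 1, and Arntl from 112806672 to 112913333 on the plus strand of chromosome 7.

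Likeness of pattern was measured as the root mean square difference of centred log2 CPM over the 6 libraries. The candidates were 12960 tested genes with a mean of at least 1 CPM. Predicted genes, clones and pseudogenes were left out by the form of their symbol. Nearest to Npas2 were Ric3 (0.296), Ift22 (0.304), Zfp994 (0.334), Ctsk (0.336) and Itga10 (0.337), against a root mean square deviation of 0.71 for Npas2 itself. Ctsk, the gene of the lysosomal protease cathepsin K, had 1.53 ± 0.53 CPM in SRA-/- and 5.25 ± 0.96 CPM in wild type cells (SD, n = 3 each). Nearest to Arntl were Ppip5k2 (0.110), Borcs7 (0.113), Akip1 (0.115), Odad3 (0.116) and Mettl26 (0.117), against 0.30 for Arntl itself. Nearest to Dbp were Apbb1 (0.252), Hba-a2 (0.309), Adamtsl5 (0.311), Phkg1 (0.312) and Cyp2a22 (0.319), against 0.75 for Dbp itself. Among the clock genes, Arntl and Clock were nearest to each other, at 0.195 against 0.30 for Arntl itself and 0.224 for Clock itself. For Per1 the nearest was Cry2 at 0.270, farther than the deviation of Per1 itself, 0.216.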

How the data were processed

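RNA of 6 samples was depleted of ribosomal RNA with a KAPA total RNA kit, per the labels' protocols, and the titles call the replicates biological. The labels do not say that each is another animal, so p-values measure the spread between these samples. The submitters' processing notes name FastQC, STAR, featureCounts and build mm39. The deposited values are raw counts per gene name, made by the authors with featureCounts 2.0.2 from exons of GENCODE vM26, per the file headers. The command set no strand and did not ask for fragments, so mates were counted singly. It changed no default for reads that touch several genes, which leaves them uncounted.

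Counts were fitted in R 4.3.3 with edgeR 4.0.16 (filterByExpr, TMM, robust quasi-likelihood, group alone). Of 53546 genes 20541 were tested, with Benjamini-Hochberg adjustment across these and a threshold of 0.05. An SE is the log2 fold change over the root of its F statistic. Centred log2 CPM used a prior count of 2. With 3 against 3 libraries an exact permutation test cannot go below a p of 0.1. Alternatives were DESeq2 1.42.0, limma-voom (limma 3.58.1), other scalings, filters and prior counts, a replicate block, a hepatocyte covariate and each library left out. The fit was tested on simulated data. There it called 2.99% of genes changed 1.5-fold, 32.8% of those changed 2-fold and 93.9% of those changed 4-fold. Of unchanged genes it called 0.0295%. The changed genes were drawn from those with a mean of at least 1 CPM, and all genes were given the dispersion of the fitted trend. A gene not called may therefore still differ by 2-fold, and 4-fold changes were missed at times. Sizes between 2-fold and 4-fold were not simulated.

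The clock genes and the lists were chosen with earlier results of these data known. Named were the 10 genes, members of each pathway list with an unadjusted p under 0.05 or among the 2 most abundant per length, genes that share exon bases with a clock gene, the 5 nearest patterns to Npas2, Arntl and Dbp, and Msr1.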

Additional observations from a re-analysis of the deposited data

How the results depend on the processing

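Over all genes, 10 passed edgeR's test, against 68 with DESeq2, 75 with limma-voom with quality weights, 32 without a filter on low counts, 17 with the hepatocyte list as a covariate and 5 with the replicate block. With a library left out the count ran from 3 without SRA-/- replicate 3 to 40 without SRA-/- replicate 2, and was 4 without SRA-/- replicate 1 or wild type replicate 2. Same-numbered libraries deviated from their group means with correlations across genes of -0.287, -0.143 and -0.131, so the libraries share only a number, and no SRA-/- library correlated best with its own number. Under the block 0 of the 10 clock genes were called.

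Of the clock genes only Per2 was called under any alternative, in 3 of 15. The log2 fold changes of the other clock genes except Nr1d1 kept their sign in all 15. That of Nr1d1 was -0.057 with the hepatocyte covariate, and with a library left out it ran from -0.125 (wild type replicate 3) to 0.413 (SRA-/- replicate 2), being -0.006 when SRA-/- replicate 1 was dropped and -0.059 when SRA-/- replicate 3 was. The cause was not tested. The difference between the limbs, -1.22, ran from -0.887 to -1.458 with a library left out. Under the other alternatives it ran from -0.817 to -1.305, and its groups did not overlap under any of them. The scaling of a library all but cancels in this difference, so the other scalings could not move it. The genes were chosen with this contrast known, so the lack of overlap describes them and tests nothing. Depth limits Npas2, which had 46 to 188 counts per library.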
